A study of Mus musculus with 6 samples.

Results

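The 45 genes described here encode the machinery that copies nuclear DNA in S phase, from the proteins that load the replicative helicase to those that supply nucleotides and assemble chromatin behind the fork. They were chosen by name, with earlier results of these data known. Each of the 45 had a row among the 39179 gene rows of every library's count table. RNA of retina was sequenced in bulk from 6 mice at postnatal day 0.5, of a mixed and primarily CD-1 strain. The 3 controls were Lhx2 lox/lox with no Cre listed, and the series text calls them wild type. The 3 conditional knockouts (cKO) were Lhx2 lox/lox; Pdgfrα-Cre, so that both groups carried the floxed alleles. Lhx2 encodes a LIM homeodomain factor needed by progenitors of the eye, and Cre is the recombinase that removes floxed DNA. The labels do not say which retinal cells the Pdgfrα-driven Cre reached. The libraries are control 2, 3 and 4 and cKO 1, 2 and 3, after their label numbers, and values per library are always given in that order.

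Replication starts from origins. The origin recognition complex (ORC) marks them, and with Cdc6 and Cdt1 it loads the ring-shaped MCM helicase, a step called licensing. In S phase Cdc45 and the GINS complex join the ring and switch it on, polymerase alpha with its primase starts each strand, and polymerases delta and epsilon extend them while held on DNA by the sliding clamp PCNA. Transcription of most of these genes rises from late G1 under E2F factors, so in a tissue their transcripts come mainly from dividing cells. In the newborn retina those are progenitors that still make late-born neurons and Müller glia, while ganglion cells, born earlier, no longer divide. In bulk RNA, fewer dividing cells and less of a transcript per cell cannot be told apart.

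The 6 libraries held 31483170 to 66947478 reads counted on genes, and 44 of the 45 genes had at least 133 reads in every library. The exception was Fen1. The libraries fell into 2 sets by the share of all deposited counts that overlapped more than 1 gene (ambiguous counts). In set A (control 2, cKO 1 and cKO 2) the share was over 2.9%, and in set B (control 3, control 4 and cKO 3) it was below. No label names these sets. Reads of Y-linked genes showed controls 2 and 4 to be male and the other 4 libraries female. Lhx2, the targeted gene, stood at 398, 266 and 258 CPM (read counts scaled to library size) in the controls, and 252, 287 and 224 in the cKO libraries. Its range in cKO overlapped that of the controls, and with library set as a term it was 0.40 lower on the log2 scale (adjusted p = 0.0338). That call was lost with genotype alone in the model (-0.27, adjusted p = 0.817) and with sex as a further term (-0.34, adjusted p = 0.371). Counts per gene do not show whether an exon was deleted.

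The replication genes were lower in cKO retina as a group. With library set as a term in edgeR's quasi-likelihood test, 39 of the 45 were lower, 0 were higher and 6 did not pass (Orc6, Gins4, Rfc1, Rfc3, Rpa3 and Fen1), at an adjusted p under 0.05 over all genes tested. Of all 16691 genes tested, 5.63% were lower and 6.36% higher. Among the 10187 with a mean of at least 10 CPM, a level more like that of these genes, 8.3% were lower. The median log2 fold change (cKO minus control) was -0.60 over the 45 genes, with quartiles of -0.66 and -0.48, against -0.00 over all genes tested. The 39 genes called fell by 19.6% to 43.8% of the control level. The log2 fold changes ran from -0.83 for Cdc6 to -0.19 for Rfc1, and 29 of them lay between -0.75 and -0.5. Summed over the 45 genes, the level was 5252, 4401 and 4035 CPM in the controls, and 3275, 3603 and 2879 in the cKO libraries, so the groups did not overlap.

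These calls rest on the set term, itself chosen with earlier results of these data known, and on particular libraries. With genotype alone in the model, 0 of the 45 were lower (19 at an unadjusted p under 0.05, median -0.49, lowest adjusted p 0.309), where 0% of all genes were lower and 0.216% higher. With sex as a further term 2 were lower (Cdc45 and Mcm5, median -0.66), where 0.377% of all genes were lower. Set A has 1 control (control 2) and set B has 1 cKO (cKO 3), so a fit without either compares the genotypes within the other set. Without control 2 the count was 7 (Cdc45, Chaf1a, Mcm5, Pcna, Prim1, Rfc5 and Tyms), and without cKO 3 it was 8 (Cdc6, Cdt1, Mcm2, Mcm5, Mcm6, Pcna, Pold2 and Tyms). Of all genes tested, 0.991% were lower without control 2 and 0.780% without cKO 3. All 45 fold changes were below 0 in each of the 6 fits that left out 1 library, with medians of -0.55 to -0.63. Mcm5, Pcna and Tyms were the genes called lower in every one of those fits.

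**Figure D1:**
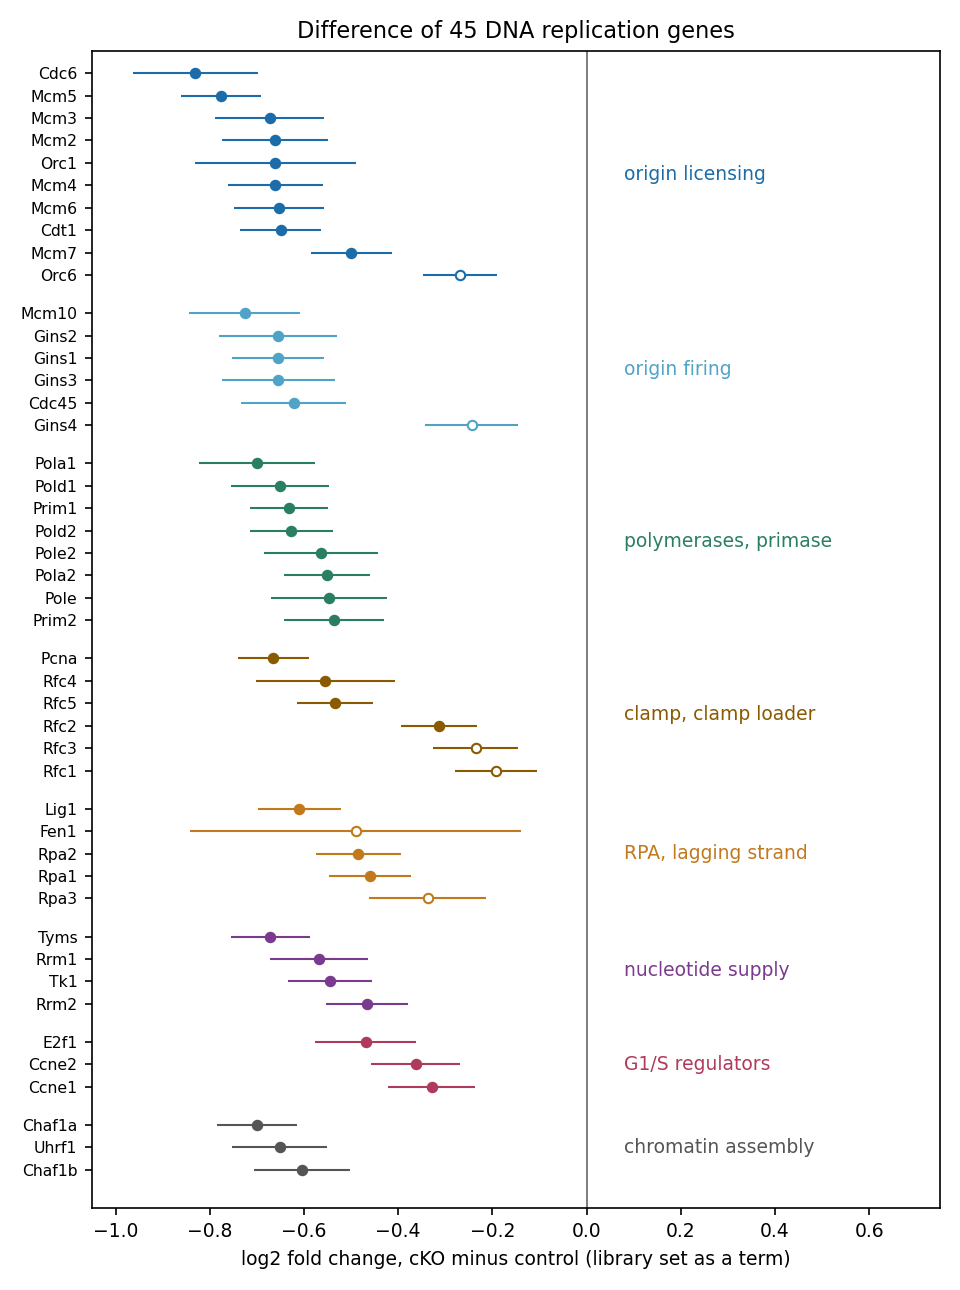
Log2 fold change (cKO minus control, horizontal axis, library set as a term) of each of the 45 DNA replication genes, ordered by role, with bars of 1 standard error. Filled points passed an adjusted p of 0.05 and open points did not. All 45 points lie left of 0, from -0.83 for Cdc6 to -0.19 for Rfc1, and the 6 open points are Orc6, Gins4, Rfc3, Rfc1, Fen1 and Rpa3.

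The direction was the same in both library sets. Within set A the 45 log2 fold changes ran from -0.98 to -0.19 (median -0.62), and within set B from -0.83 to -0.19 (median -0.55). In 44 of the 45 genes every cKO library lay below every control of its own set, an order that 23.8% of all tested genes showed. Fen1 was the exception. Irrespective of set, all 3 cKO libraries lay below all 3 controls for 18 of the 45 genes, against 5.54% of all genes. No interaction of set and genotype passed for any of the 45 (0 called and 0 at an unadjusted p under 0.05 in edgeR, lowest unadjusted p 0.097, and 0 called in DESeq2), where 0.024% of all genes did. With so few libraries, this does not show that the sets respond alike. Control 3 and cKO 3 were both female and both in set B, and between these 2 libraries all 45 genes were lower in cKO 3, by a median of -0.60 on the log2 scale (range -0.90 to -0.23, with no replicate check).

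**Figure D2:**
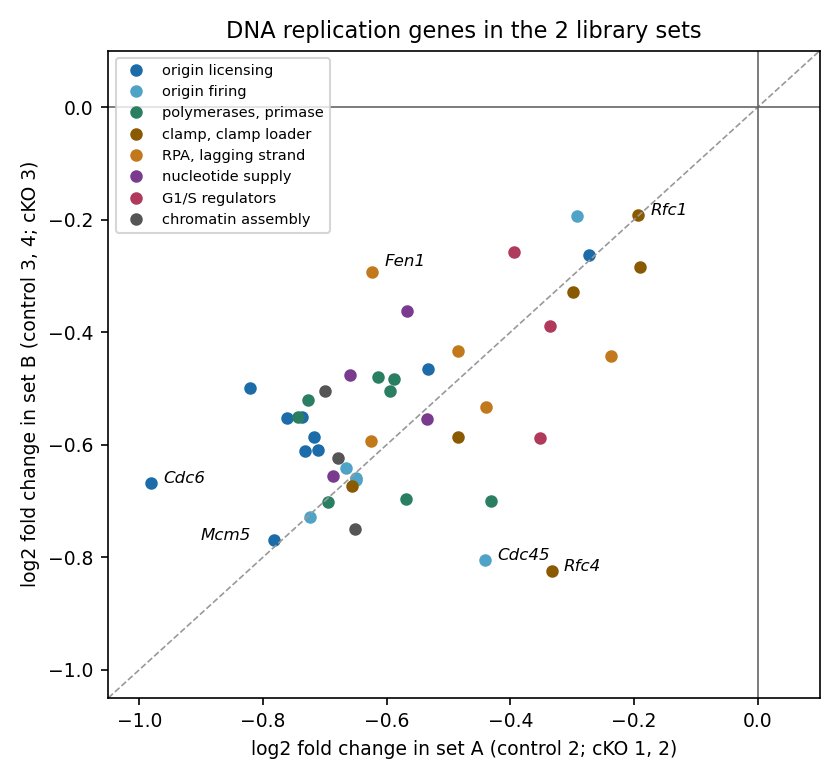
Log2 fold change (cKO minus control) of each of the 45 genes in set A (horizontal axis) against set B (vertical axis), with 1 point per gene coloured by role. The broken line marks equal changes. Every point lies below 0 on both axes. Cdc6 fell furthest in set A (-0.98) and Rfc4 in set B (-0.83).

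The stretches of DNA just upstream of these genes are shown because many of the genes are known E2F targets and moved together. RefSeq starts on GRCm38.p6 were at hand for 37 of the 45 genes. The 250 bases before each start were searched on both strands for the E2F motif in any of the forms TTTCCCGC, TTTGGCGC, TTTCGCGC and TTTGCCGC, with overlapping matches counted once and the start with most matches taken for each gene. A match was found in 9 of the 37 windows (24.3%), against 2.2% of 27025 genes in the same table. The 9 genes were Orc1, Cdc6, Mcm5, Mcm6, Mcm7, Gins3, Pola1, Rfc3 and Uhrf1. Below are parts of 6 of these windows, 5′ to 3′ on the strand of the gene, for the genes with most matches and then smallest p. Capitals mark the matches. In order they lie at chr1:128359715-128359845 (minus strand), chr8:75109326-75109397 (plus), chr17:56304098-56304165 (plus), chr11:98907983-98908050 (plus), chr5:138172032-138172057 (minus) and chrX:93632256-93632323 (minus).
Mcm6: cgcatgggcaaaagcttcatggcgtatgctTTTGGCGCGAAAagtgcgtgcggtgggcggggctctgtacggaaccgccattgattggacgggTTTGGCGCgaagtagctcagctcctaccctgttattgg
Mcm5: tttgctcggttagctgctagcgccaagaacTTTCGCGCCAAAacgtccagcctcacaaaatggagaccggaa
Uhrf1: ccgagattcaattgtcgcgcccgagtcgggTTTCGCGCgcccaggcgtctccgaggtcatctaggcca
Cdc6: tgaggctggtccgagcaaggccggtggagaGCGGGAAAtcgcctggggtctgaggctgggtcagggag
Mcm7: tttcgaaccGCGGGAAAcagggtgtc
Pola1: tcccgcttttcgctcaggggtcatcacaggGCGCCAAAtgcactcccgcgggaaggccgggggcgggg

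In Mcm6 and Mcm5 the capitals run to 12 bases because a pair of opposite-strand matches overlap. The Mcm6 window holds 2 separate matches, which begin 110 and 47 bases before the start, and the Mcm5 match begins 153 bases before it. The Uhrf1, Cdc6 and Mcm7 stretches lie upstream of the RefSeq start but inside the longer GENCODE gene, and that of Mcm7 overlaps an annotated exon. The 28 genes with no match in the window had a median log2 fold change of -0.57, and the 8 with a single match had -0.66. Those without a match include Pcna (-0.67), Cdt1 (-0.65) and Mcm10 (-0.73), and Rfc3, which holds a match, did not pass (-0.24). A match is a description of these letters only. The CCAAT box, spelled CCAAT, was found in 23 of the 37 windows (62.2%, against 37.5% of all genes). The CHR element, spelled TTTGAA and known from genes of mitosis, was in 13.5% of them (against 18.3% of all genes).

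Of the 10 licensing genes 9 were lower, with a median of -0.66 (1 without control 2 and 5 without cKO 3). Mcm5, a subunit of the MCM ring, had the smallest p of the 45. Mcm5 (ENSMUSG00000005410, on the plus strand of GRCm38 chromosome 8 from 75109569 to 75128439) was counted at 249, 185 and 164 CPM in the controls, and 139, 151 and 102 in the cKO libraries. All cKO values lay below all controls, and the log2 fold change was -0.78 ± 0.08 (SE, adjusted p = 0.00120). Cdt1, the loader that is destroyed once S phase begins, was set apart by library set more than by genotype. It stood at 132, 32.1 and 33.2 CPM in the controls, and 77.1, 81.8 and 22.3 in the cKO libraries. Its groups overlapped, and yet within each set cKO was lower (-0.74 in A, -0.55 in B), for a fold change of -0.65 ± 0.09 (adjusted p = 0.00278). With genotype alone the Cdt1 difference was -0.13.

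Cdc6, the ATPase that works with Cdt1, had the largest fall of the 45. It was counted at 51.6, 32.4 and 31.9 CPM in the controls, and 22.2, 30 and 20.2 in the cKO libraries (ENSMUSG00000017499, chromosome 11, 98907801 to 98923940, plus strand). The groups did not overlap, though cKO 2 came close to control 4. The log2 fold change was -0.83 ± 0.13 (adjusted p = 0.00630). All 6 subunits of the MCM ring were lower, with fold changes of -0.78 for Mcm5, -0.67 for Mcm3, -0.66 for Mcm2 and Mcm4, -0.65 for Mcm6 and -0.50 for Mcm7. The ring holds 1 copy of each subunit. Per kilobase of the longest coding transcript, the control levels of the 6 ranged from 54.0 (Mcm4) to 84.1 (Mcm7) CPM, a ratio of 1.56. The cKO levels ranged from 32.15 (Mcm4) to 69.7 (Mcm7) CPM, a ratio of 2.17. These levels are group means that ignore library set, and set A holds control 2, cKO 1 and cKO 2. The set difference (B minus A, log2) was -0.72 for Mcm7 and 0.28 for Mcm4. The ratios thus mix set with genotype, and a change of balance within the ring was not tested.

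Of the 6 subunits of ORC 2 were called lower. Orc1, the subunit whose level follows the cell cycle, stood at 6.29, 6.16 and 7.12 CPM in the controls, and 3.60, 3.81 and 4.53 in the cKO libraries. The groups did not overlap, and the fold change was -0.66 ± 0.17 (adjusted p = 0.0385). The call on Orc1 was lost without control 2, control 3, control 4, cKO 2 or cKO 3. Adding sex to the model gave a difference of -0.48 (adjusted p = 0.394). Orc6, which binds the others loosely, had 56.3, 45.7 and 47.7 CPM in the controls, and 47.2, 46.0 and 38.9 in the cKO libraries. Its values overlapped and it did not pass (-0.27 ± 0.08, adjusted p = 0.0598). Of the subunits outside the 45 genes, Orc2 was lower (-0.35 ± 0.09, adjusted p = 0.0317). Orc3, Orc4 and Orc5, other core subunits, did not pass, with fold changes of -0.03 ± 0.08, 0.01 ± 0.10 and -0.07 ± 0.10. The differences between subunits were not tested.

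**Figure D3:**
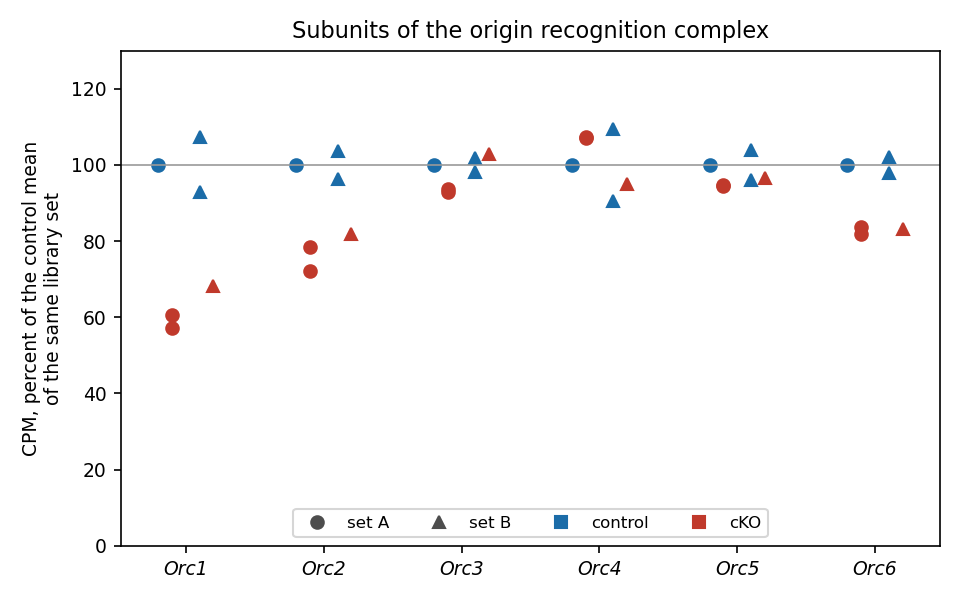
CPM of the 6 ORC subunits in each library as a percent of the mean of the controls of the same library set (vertical axis from 0). Circles are set A and triangles set B, blue is control and red cKO, and the single control of set A is 100 by construction. The red points of Orc1 lie lowest, while those of Orc3, Orc4 and Orc5 lie near the line, where the fitted log2 fold changes were between -0.07 and 0.01.

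Of the 6 genes of origin firing 5 were lower, with a median of -0.65 (1 without control 2 and 0 without cKO 3). Gins1, a GINS subunit, stood at 39.1, 25.4 and 23.2 CPM in the controls, and 23.7, 25.5 and 15.6 in the cKO libraries. The groups overlapped across sets but not within them, and the fold change was -0.65 ± 0.10 (adjusted p = 0.00478). Mcm10, which helps to activate the helicase and is no part of the ring, had 31.3, 35.6 and 32.5 CPM in the controls, and 16.7, 21.1 and 20.6 in the cKO libraries. These values differed little between sets and did not overlap (-0.73 ± 0.12, adjusted p = 0.00670). Gins3 was as even, with 19.7, 19.3 and 20.0 CPM in the controls, and 11.4, 13.7 and 12.4 in the cKO libraries (-0.65 ± 0.12). Cdc45, the partner of GINS on the helicase, fell by 0.62 on the log2 scale. The difference was -0.44 in set A and -0.81 in set B. Gins2 also fell by 0.66, but 67.3% of its exon bases overlap Gse1 on the other strand, and whether reads were counted by strand is not known.

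The GINS subunit that did not pass was Gins4. It had 33.4, 37.4 and 35.0 CPM in the controls, and 29.4, 25.2 and 31.6 in the cKO libraries. The groups did not overlap, but the gap was small beside the spread (-0.24 ± 0.10, adjusted p = 0.156). GINS holds 1 copy of each of its subunits, and the log2 fold changes of the other three were -0.65 to -0.66.

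All 8 genes of the replicative polymerases and the primase were lower, with log2 fold changes from -0.54 to -0.70 (1 without control 2 and 1 without cKO 3). Prim1, the catalytic subunit of the primase, stood at 72.5, 86.7 and 82.4 CPM in the controls, and 50.2, 47.6 and 52.2 in the cKO libraries. The lowest control was well above the highest cKO (-0.63 ± 0.08, adjusted p = 0.00278). Prim2, its regulatory partner, fell by 0.54, and Pola1 and Pola2, subunits of polymerase alpha, by 0.70 and 0.55. Pold2, an accessory subunit of polymerase delta, had 105, 41.8 and 45.3 CPM in the controls, and 62.2, 64.4 and 30.4 in the cKO libraries. Set A was high throughout, so that the groups overlapped although cKO was lower in each set (-0.63 ± 0.09, adjusted p = 0.00364). Pold1, the catalytic subunit, followed the same order (-0.65 ± 0.10).

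The weakest p of this class was that of Pole, the catalytic subunit of the leading-strand polymerase epsilon. It had 53.0, 84.4 and 69.2 CPM in the controls, and 30.3, 39.0 and 55.1 in the cKO libraries, with set B the higher. Only cKO 3 reached the range of the controls (-0.55 ± 0.12, adjusted p = 0.0238). Pole2, another subunit of that enzyme, fell by 0.56.

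The sliding clamp differed clearly between the groups, and its loader less so. Pcna (ENSMUSG00000027342, chromosome 2, 132249162 to 132253314, minus strand) was counted at 341, 339.7 and 335 CPM in the controls, and 209, 223 and 212 in the cKO libraries. Control and cKO libraries formed separate narrow bands in both sets, at 338 ± 2.895 and 214 ± 7.81 CPM (SD, n = 3 each). The log2 fold change was -0.67 ± 0.08 (adjusted p = 0.00143). Per kilobase of its longest coding transcript Pcna was also the highest of the 45 genes in controls, at 223 ± 1.91 (SD, n = 3). The annotation names the pseudogenes Pcna-ps1 and Pcna-ps2, and how reads shared with them were counted is uncertain.

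**Figure D4:**
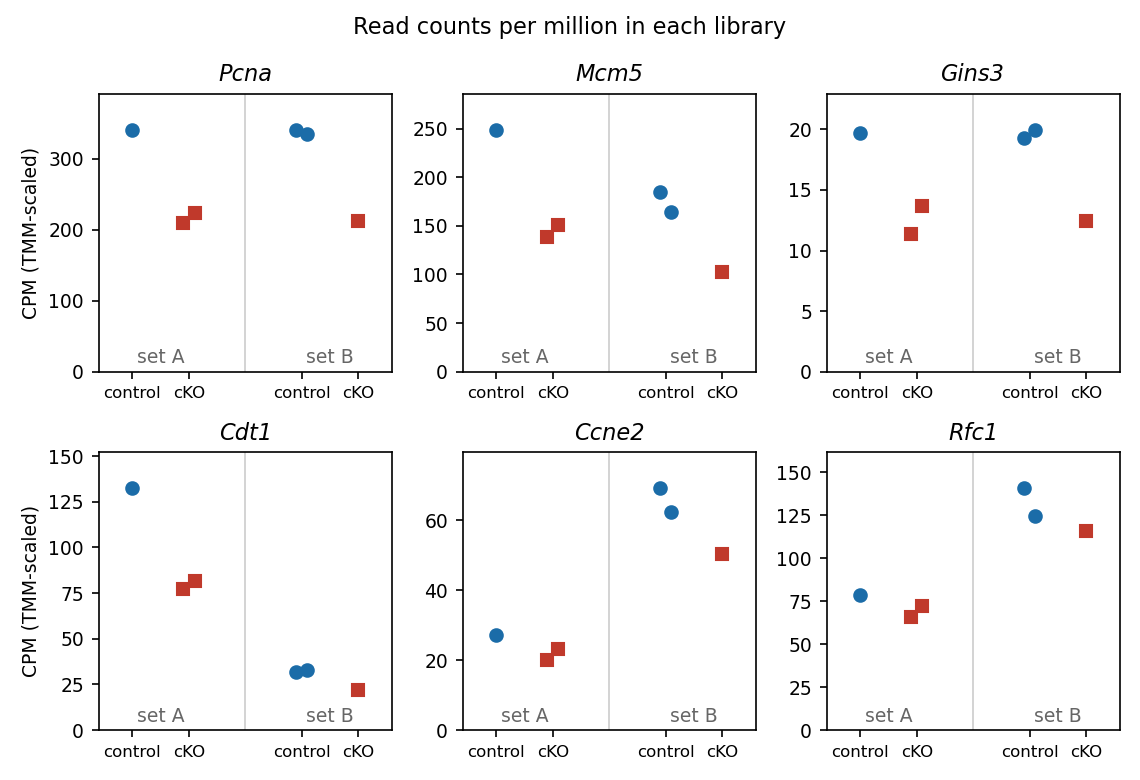
CPM in each library (vertical axis from 0, TMM-scaled) for Pcna, Mcm5, Gins3, Cdt1, Ccne2 and Rfc1. Each point is 1 library, with blue circles for controls and red squares for cKO, set A at left and set B at right. Pcna and Gins3 sit at the same level in both sets, Cdt1 is higher in set A, and Ccne2 and Rfc1 are higher in set B, while in all 6 genes cKO lies below control within each set.

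Of the 5 subunits of the clamp loader RFC, 3 were lower, with a median over all 5 of -0.31. Rfc5 had 55.5, 45.1 and 46.0 CPM in the controls, and 38.9, 40.5 and 30.4 in the cKO libraries. The groups did not overlap (-0.53 ± 0.08, adjusted p = 0.00518). Rfc4 fell by 0.55 and Rfc2 by 0.31, the smallest change that was called. Neither passed without control 3, control 4 or cKO 2, nor without control 2 or cKO 3. With genotype alone in the model Rfc4 stood at 0.067 and Rfc3 at 0.076, above 0. Rfc1, the large subunit, had 78.7, 141 and 124 CPM in the controls, and 65.7, 72.0 and 116 in the cKO libraries. The values followed the library set, with cKO 3 above control 2, and Rfc1 did not pass (-0.19 ± 0.09, adjusted p = 0.200). Rfc3 did not pass either, at 60.2, 34.5 and 30.9 CPM in the controls, and 54.7, 50.9 and 26.9 in the cKO libraries (-0.24 ± 0.09, adjusted p = 0.129). With Pcna, 4 of the 6 clamp genes were lower (2 without control 2 and 1 without cKO 3).

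Among the 5 genes of single-strand binding and lagging-strand joining 3 were lower, with a median of -0.48 (0 without control 2 and 0 without cKO 3). Lig1, the ligase that seals Okazaki fragments, had 214, 203 and 179.5 CPM in the controls, and 131, 147 and 127 in the cKO libraries. Its groups were clearly apart (-0.61 ± 0.09, adjusted p = 0.00422). Rpa2, a subunit of the single-strand binding protein RPA, had 115, 56.8 and 51.1 CPM in the controls, and 89.0, 80.1 and 37.3 in the cKO libraries. Again set A was high and the groups overlapped across sets (-0.48 ± 0.09, adjusted p = 0.0110). The large subunit Rpa1 fell by 0.46. Rpa3, the small subunit, had 27.1, 24.97 and 24.1 CPM in the controls, and 25.6, 20.3 and 18.03 in the cKO libraries, and did not pass (-0.34 ± 0.12, adjusted p = 0.119). Here cKO 1 lay within the control range.

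Fen1, the flap nuclease that trims Okazaki fragments, had few reads, 15 to 96 per library. It was listed at 2.10, 1.08 and 0.50 CPM in the controls, and 1.48, 1.24 and 0.65 in the cKO libraries. Per kilobase of coding transcript its control level was 0.52 CPM, against 62.7 CPM for Lig1. Of its exon bases 84.2% overlap Tmem258 and Gm10143 on the other strand, and whether its reads were set aside as ambiguous was not tested. Its difference did not pass (-0.49 ± 0.35, adjusted p = 0.430), and cKO 3 was above control 4.

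All 4 genes of nucleotide supply were lower, with a median of -0.56 (1 without control 2 and 1 without cKO 3, Tyms in both). Tyms, thymidylate synthase, had 89.5, 66.5 and 62.2 CPM in the controls, and 53.2, 58.0 and 40.8 in the cKO libraries. The groups did not overlap (-0.67 ± 0.08, adjusted p = 0.00229). A pseudogene, Tyms-ps, is annotated. Tk1, the thymidine kinase of the salvage route, had 74.97, 33.6 and 29.2 CPM in the controls, and 51.4, 52.1 and 21.4 in the cKO libraries. It was higher in set A and lower in cKO within each set (-0.54 ± 0.09, adjusted p = 0.00666). Ribonucleotide reductase makes deoxynucleotides, and its large subunit Rrm1 fell by 0.57. The S phase subunit Rrm2 had 189, 131 and 118.5 CPM in the controls, and 123, 132 and 97.0 in the cKO libraries. Here cKO 1 and cKO 2 reached the level of the set B controls (-0.47 ± 0.09, adjusted p = 0.0112).

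The 3 regulators of the G1 to S transition were called lower, with a median of -0.36. E2f1, an E2F factor that activates S phase genes, had 191, 144 and 178 CPM in the controls, and 155, 144.0 and 107 in the cKO libraries. The groups overlapped (-0.47 ± 0.11, adjusted p = 0.0247). Ccne2, a cyclin E that activates Cdk2, had 27.3, 69.2 and 62.5 CPM in the controls, and 20.1, 23.1 and 50.3 in the cKO libraries. Set B was far above set A, by a difference of 1.25 on the log2 scale, against a cKO difference of -0.36 ± 0.09 (adjusted p = 0.0400). Ccne1, the other cyclin E, ran the other way across sets, with 46.0, 25.7 and 25.9 CPM in the controls, and 33.4, 36.6 and 21.6 in the cKO libraries. It passed only just (-0.33 ± 0.09, adjusted p = 0.04998). None of the 3 passed without control 2, control 3, control 4 or cKO 3, and 1 passed without cKO 2.

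The 3 genes of chromatin assembly and maintenance of DNA methylation were lower, with a median of -0.65 (1 without control 2 and 0 without cKO 3). Chaf1a, the large subunit of the histone chaperone CAF-1, had 63.8, 88.8 and 90.6 CPM in the controls, and 38.7, 42.6 and 53.4 in the cKO libraries. The groups did not overlap (-0.70 ± 0.08, adjusted p = 0.00204). Of its exon bases 52.5% overlap Ubxn6 on the other strand. Uhrf1, which brings the maintenance methyltransferase to new DNA, had 288, 286 and 252 CPM in the controls, and 162, 197 and 174.5 in the cKO libraries, with little difference between sets (-0.65 ± 0.10, adjusted p = 0.00524). Chaf1b, the partner of Chaf1a, had 71.9, 58.8 and 52.7 CPM in the controls, and 40.6, 47.9 and 39.3 in the cKO libraries (-0.60 ± 0.10, adjusted p = 0.00773).

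Other genes of replication moved in the same direction but less uniformly. Of 70 further genes tested, 40 were lower and 0 higher, with a median of -0.45 (6 without control 2, 21 without control 3 and 1 without cKO 3). Without control 3, 2.63% of all genes tested were lower. With genotype alone 0 were lower (16 at an unadjusted p under 0.05), and with sex as a further term 2. By function, 8 of 15 origin genes, 13 of 22 fork genes, 5 of 8 nucleotide genes, 9 of 18 regulators and 5 of 7 chromatin genes were lower. Among origin genes, Topbp1, a firing factor, fell by 0.67, Recql4, a helicase, by 0.58, and Gmnn, the inhibitor of Cdt1, by 0.45. Among fork genes, the fork protection factor Tipin fell by 0.53, the clamp loader subunit Chtf18 by 0.67 and the nuclease Dna2 by 0.57. Of the nucleotide genes, Shmt1 fell by 0.49 and Dut by 0.46. Of the regulators, Fbxo5 fell by 0.56, Cdk2 by 0.57 and E2f2 by 0.84, the largest fall of the 70. Of the chromatin genes, Asf1b, a histone chaperone, fell by 0.58, Pclaf, a binding partner of PCNA, by 0.64, and Slbp, the binding protein of histone messenger RNA, by 0.48.

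Genes of mitosis, a later phase of the same cycle, fell by much the same amount. Of 24 tested, 23 were lower with a median of -0.55 (2 without control 2 and 3 without cKO 3). With genotype alone 0 were lower (15 at an unadjusted p under 0.05), and with sex as a further term 0. Birc5 fell by 0.59, Aurkb by 0.62 and Kif23 by 0.56. Mki67, the widely used proliferation marker, did not pass at -0.55 ± 0.16 (adjusted p = 0.0644). It stood at 727, 1549 and 1460.0 CPM in the controls, and 349, 554.5 and 1134 in the cKO libraries. By contrast, 3 of 13 repair polymerases and ligases were lower (Polh, Polq and Parp1, median -0.18). Of 11 genes that replicate mitochondrial DNA 1 was lower (Polg, median -0.14). In the same fit 5.63% of all genes tested were lower, and 8.3% of those with a mean of at least 10 CPM. No test compared these lists with the 45 genes.

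**Figure D5:**
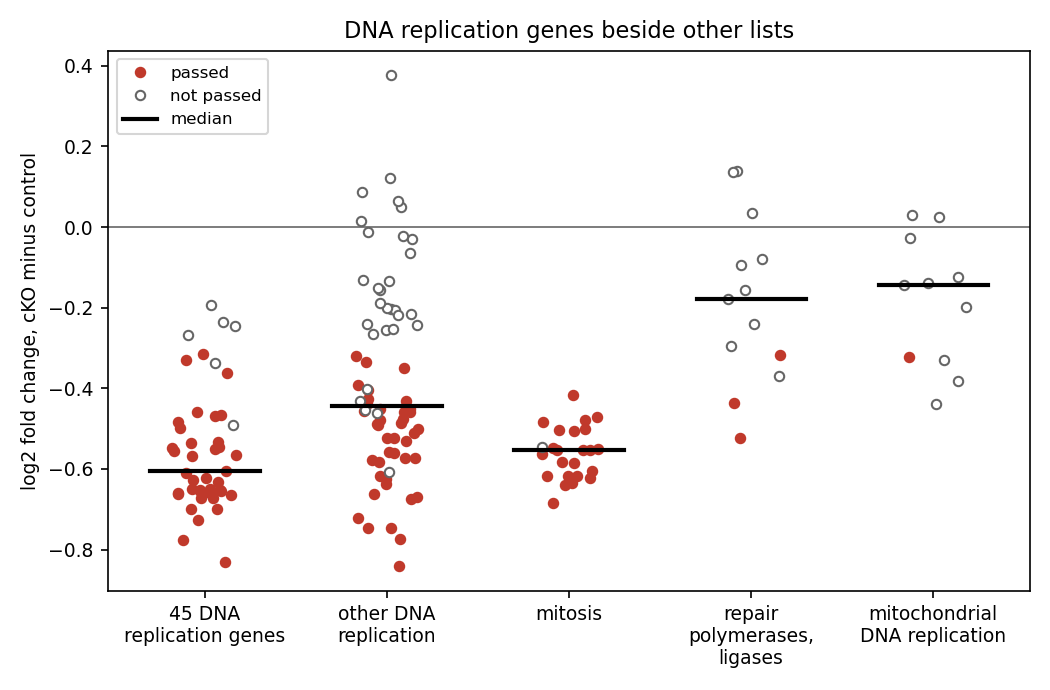
Log2 fold change (cKO minus control, vertical axis, library set as a term) of each gene in 5 lists, with 1 point per gene and a bar at each list's median. Filled points were lower at an adjusted p under 0.05. The medians are -0.60 for the 45 DNA replication genes, -0.45 for 70 other replication genes, -0.55 for 24 mitosis genes, -0.18 for 13 repair genes and -0.14 for 11 mitochondrial genes.

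Levels of the replication genes also differed between library sets, in both directions. With genotype in the model, 25 of the 45 were lower and 8 higher in set B than in set A. The differences (B minus A, log2) ran from -1.93 for Cdt1 and -1.73 for Rfc4 to 0.89 for Pola1 and 1.25 for Ccne2. Among all genes, 5206 were lower and 5431 higher. Polymerases delta and epsilon parted in this comparison. Polymerase delta subunits Pold1 and Pold2 were lower in set B by 1.21 and 1.17, while polymerase epsilon subunits Pole and Pole2 were 0.60 and 0.74 higher. Pcna (-0.02), Gins3 (-0.01), Rrm1 (-0.06) and Uhrf1 (-0.07) hardly differed between sets.

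Markers of cell types also differed between the groups, and their part in the changes of the replication genes was not tested. Counts are from the fit with library set, where 5.63% of all genes tested were lower and 6.36% higher. Of 12 retinal progenitor markers 9 were lower, with the targeted gene Lhx2 among them, and 1 (Sfrp2) higher. Their summed level, of which Ccnd1 was the largest part, was 7643 to 7921 CPM in controls and 4361 to 6014 CPM in cKO. Of the progenitor markers Ccnd1, a cyclin of these cells, fell by 0.95, while Pax6 and Six3 stood at -0.03 and -0.06 and did not pass. All 8 ganglion cell markers were higher, from a sum of 1138 to 1411 CPM to one of 1761 to 2546 CPM. Of 12 lens markers the 10 tested were higher, from a sum of 2.54 to 6.09 CPM to one of 843 to 2241 CPM. Lim2, a lens membrane gene, was at 0 in all controls and in cKO 3, and Foxe3 was at 0 in all controls. Of 8 microglial markers 6 were higher, from a sum of 17.7 to 36.7 CPM to one of 47.9 to 80.8 CPM, and of 10 vascular markers 7 were higher and 1 (Kdr) lower. With genotype alone, 0 of the progenitor markers were lower (4 at an unadjusted p under 0.05) and 0 ganglion, 7 lens, 0 microglial and 0 vascular markers were higher (3, 10, 5 and 6 at an unadjusted p under 0.05). With sex as a further term, 2 progenitor markers were lower, and 2 ganglion, 10 lens, 1 microglial and 2 vascular markers were higher. The sum of the 10 vascular markers was 548 to 722 CPM in controls and 300.2 to 586 CPM in cKO. Most of it was Kdr, at 509 to 683 CPM in controls and 240 to 424 CPM in cKO (log2 fold change -0.71). The sum thus followed Kdr and not the 7 markers that were higher. Of 8 amacrine and horizontal cell markers 1 was lower and 1 higher (422 to 1019 CPM against 378 to 853 CPM in sum). Of 8 photoreceptor markers 2 were lower and 1 higher (1136 to 1441 CPM against 1026 to 1141 CPM). Of 6 astrocyte markers 1 was higher (71.9 to 93.9 CPM against 86.3 to 95.9 CPM), and of 4 blood markers tested 2 were higher (0.75 to 12.7 CPM against 18.75 to 22.6 CPM). Of 7 pigment epithelium markers tested none passed (0 lower, 0 higher). Their sum, most of it Rlbp1, was 109 to 137 CPM in controls and 109 to 218 CPM in cKO. Rlbp1 alone stood at 98.2 to 122 CPM in controls and 93.9 to 191 CPM in cKO. Rpe65 was at 0 in 4 of the 6 libraries.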

How the data were processed

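RNA was extracted from frozen retinas with a Qiagen kit and made into Illumina TruSeq libraries, per the labels' protocols. The authors deposited raw read counts for each Ensembl gene identifier, and the submitters' processing notes name STAR, HTSeq, edgeR and GRCm38. No source used here gives the strand setting. The 5 rows that name no gene held 26.4% to 28.8% of all counts and stayed out of library sizes and tests. Symbols, positions and lengths came from GENCODE vM21 on GRCm38, which matched 37693 identifiers (96.21%).

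Counts were filtered with filterByExpr (16691 genes kept), scaled by TMM and tested with glmQLFit and glmQLFTest in edgeR 4.0.16 under R 4.3.3, with library set and genotype as terms. Library set A held libraries with over 2.9% ambiguous counts. Residual degrees of freedom were 3 with the set term, 4 with genotype only and 2 with sex added. P-values were 2-sided and Benjamini-Hochberg adjusted over all genes tested. CPM values are TMM-scaled. Fold changes within each set came from a fit with the interaction, and the pair of control 3 and cKO 3 was compared as log2 CPM with 0.5 added.

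The 45 genes, the other lists and the set term were chosen with earlier results of these data known. Full values per library were given, by role, for the 2 genes of smallest p and the gene of largest p and for every gene that did not pass. Of each other list up to 3 genes of smallest p are named, and Lhx2 as a check of the labels. Some listed genes are not reported here by name. Gins3, Cdc6, Orc1, Mki67, the other ORC subunits and the subunits and markers quoted by fold change alone were named after their values were seen. The labels give 3 mice per group, and libraries were taken as separate animals. Libraries of 1 group differed from each other beyond counting noise. Alternatives were other scalings, filters and thresholds, other terms, leaving out each library, DESeq2 1.42.0 and limma-voom (limma 3.58.1). The script of the test was tested on simulated counts.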

Additional observations from a re-analysis of the deposited data

How the results depend on the processing

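Counts of genes lower in cKO are given for the 45 replication genes, the 70 other replication genes and the 24 mitosis genes in that order, against 39, 40 and 23. With genotype only they were 0, 0 and 0, and with library set and sex 2, 2 and 0. At an adjusted p under 0.01 they were 24, 14 and 12. Leaving out 1 library gave ranges of 7 to 41, 1 to 46 and 2 to 24, lowest without control 2 or cKO 3. Of all genes tested, 0.780% (without cKO 3) to 7.94% (without cKO 1) were lower in those fits. Without control 3 the other replication genes numbered 21, where 2.63% of all genes tested were lower. These fits use fewer libraries or more terms, and for the genotype-only fit the cause was not tested. Label numbers 2 and 3 occur in both groups, and with the replicate number as a block in place of library set the counts were 38, 43 and 24, with Ccne1 and Orc1 lost and Rpa3 gained among the 45. Same-numbered libraries deviated together (r = 0.83 and 0.78 over 16691 genes), but each pair lies within 1 library set and only 2 pairs exist, so the numbers were not taken as pairing. Under 3 other scalings, 2 other filters, DESeq2, limma-voom and a threshold of 0.1 the 45 genes gave 35 to 40. The share of all genes lower was not counted at the threshold of 0.01, for the replicate block or under these alternatives. Of the 39 genes called, Ccne1 was lost under total-count scaling, TMM without mitochondrial and crystallin genes, a mean CPM filter of 1 and limma-voom. Rfc4 was lost under total-count scaling, that CPM filter and limma-voom, and Rfc2 and Ccne2 under total-count scaling. With genotype only, Rfc3 (0.076, adjusted p = 0.946) and Rfc4 (0.067, adjusted p = 0.972) changed sign. Over 16 alternatives and 45 genes, 544 values kept direction and side of the threshold, 169 lost the threshold and 5 passed it. The 44 genes lower within each set became 18 when sets were ignored. Other scalings moved the median of all genes by at most 0.04 (-0.04 to 0.03). Depth limits Fen1 and Orc1 most.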

Other observations

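Across the 45 genes the cKO difference and the set difference did not track each other closely. As a description over genes that share the same 6 libraries, Spearman's rho was -0.10 between them (n = 45). It was -0.36 between the cKO difference and the length of the longest coding transcript, and 0.24 between the set difference and that length. Between the cKO difference and the mean control CPM it was -0.20.

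In the windows of 250 bases before RefSeq starts, 13 of 57 other replication genes held an E2F match (22.8%), close to the share among the 45 genes. Of 21 mitosis genes 1 did (4.8%), while 17 held a CCAAT box (81.0%) and 8 a CHR element (38.1%). Of 9 repair and 10 mitochondrial replication genes, 0 held an E2F match.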
